A study of Homo sapiens with 4 samples.

Results

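The genes described here encode the nuclear pore complex, the nuclear transport receptors and the core of the Ran cycle. They were chosen by name from the gene lists of the count tables, as every name that begins with NUP and a digit, every numbered KPNA, KPNB, IPO and XPO name and XPOT, and 14 further names (TPR, RANBP2, RAN, RANGAP1, RCC1, NDC1, POM121, AAAS, SEH1L, SEC13, CSE1L, TNPO1, TNPO2 and TNPO3). This gave 57 of 29655 distinct names, of which 52 reached the minimum level for testing. The rule reads names and no expression values, though it was set with earlier results of these data known.

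The nuclear pore complex is a large assembly of nucleoporins that spans the nuclear envelope. Scaffold nucleoporins build its rings, and nucleoporins with phenylalanine-glycine (FG) repeats fill its channel. Importins carry cargo with nuclear localization signals inward and exportins carry cargo outward. Direction is set by the small GTPase RAN, which is loaded with GTP by RCC1 on chromatin and switched to GDP by RANGAP1 at the cytoplasmic face of the pore. Pores also disassemble and reassemble around mitosis in human cells, and new pores are inserted as nuclei grow.

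RNA-seq was performed on UMSCC74B cells, an established line labelled as head and neck squamous cell carcinoma (HNSCC). The comparison held 2 libraries labelled control, from cells of wild-type genotype given control shRNA, and 2 libraries labelled PRMT5 KD, from cells given shRNA against the arginine methyltransferase PRMT5, all taken 72 h after the shRNA was introduced. It addressed how transcript levels differ when PRMT5 is silenced. The sample labels name plasmid transfection, while the methods of the study name lentiviral particles, and no source used here says that the 2 libraries of a group came from separate cultures, so the tests measure the spread between these libraries, which may be technical. The control libraries held 52185289 and 65964558 estimated counts in total, and those labelled PRMT5 KD 64233361 and 55328869. The 57 names together received 0.749% and 0.683% of the protein-coding counts in control, against 1.05% and 1.14% under the PRMT5 KD label.

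The targeted gene went against its label at the level of RNA. PRMT5 measured 94.3 and 84.3 CPM (depth-scaled counts, with TMM factors over the genes tested) in control against 132 and 150 CPM under the PRMT5 KD label, so both labelled libraries were higher (log2 fold change 0.66, SE 0.12, false discovery rate (FDR) 0.00550 in edgeR's quasi-likelihood test with Benjamini-Hochberg adjustment). Without control replicate 2 the same difference was 0.58 with an FDR of 0.0667. The study checked the silencing at the protein level by immunoblot, a measure that runs with the labels, and protein was not analysed here. Every direction given for a gene is therefore a difference between libraries labelled PRMT5 KD and libraries labelled control.

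Other features of the libraries also moved with the label. Of 20 cell cycle genes, 20 were called higher under the PRMT5 KD label, by 0.91 to 3.35 on the log2 scale. Over all genes tested, 21.2% were called higher and 24.3% lower. The squamous markers KRT5, KRT6A and KRT14, keratins of stratified epithelium, stayed under 1 CPM in all 4 libraries, and KRT17 and SFN did so in control, so these 5 of the 8 markers of the labelled cell type were at or near 0 there. The other three were expressed. DSG3 was called lower (-0.85), TP63 was called lower (-1.35) and PKP1 was called higher (0.79), so the markers did not move together. Summed over all 8, they measured 57.0 and 51.8 CPM in control libraries but 36.2 and 47.6 CPM in those labelled PRMT5 KD. The 5 fibroblast markers (COL1A1, COL1A2, PDGFRB, DCN and LUM) summed to 526 and 581 CPM in control and 85.3 and 93.0 CPM under the PRMT5 KD label. All 5 were called lower, against 24.3% of all genes tested. The 4 leukocyte markers summed to 34.7 and 40.1 CPM in control and to 1.09 and 1.90 CPM under the label, with CD3E at 0 in every library and nearly all of the sum from CD14, and the 3 endothelial markers to 10.1 and 14.0 against 1.01 and 0.460 CPM. In bulk RNA, fewer cells of a type and less RNA per cell cannot be told apart. The part of these shifts in the values of the pore and transport genes was not tested.

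Most pore and transport genes that differed were higher under the PRMT5 KD label. Calls required an FDR below 0.05 together with a log2 fold change of 0.5 or more in size. Of the 52 genes tested, 23 were called higher, 1 was called lower (IPO8) and 28 were not called. The background was 21.2% of 11897 genes called higher and 24.3% called lower, against 44.2% and 1.92% of the pore and transport genes. The share called in either direction, 46.2%, was close to the 45.5% of all genes, while the split between the directions was not. By FDR alone 33 were higher (26.3% of all genes) and 3 lower (28.1%). Their median log2 fold change was 0.45, against -0.01 over all genes tested. Both libraries labelled PRMT5 KD lay above both control libraries for 39 of the 52, below both for 7, and the groups overlapped for 6. Over all genes tested, 39.9% lay above and 40.6% lay below. At a log2 threshold of 1, the 9 genes called were all higher (background 8.67% called higher).

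Scaling moved these counts without turning the split. With total counts alone in place of TMM factors, the median of all genes tested moved to 0.17 and the share of all calls that were higher moved from 46.5% to 61.5%. The pore and transport genes then had a median of 0.63, with 33 called higher and 0 lower. Over the 11897 genes tested, 3507 were called higher and 2200 lower with that scaling. Of the 24 calls, 12 were made in each of 16 alternative fits that kept the fold threshold. These were RAN, RCC1, RANGAP1, NUP35, NUP50, NUP54, NUP62, NUP85, NUP107, NUP188, KPNA2 and CSE1L. Control replicate 2 carried the most weight. Leaving it out gave the fewest calls of any library, among these genes and over all genes tested.

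**Figure D1:**
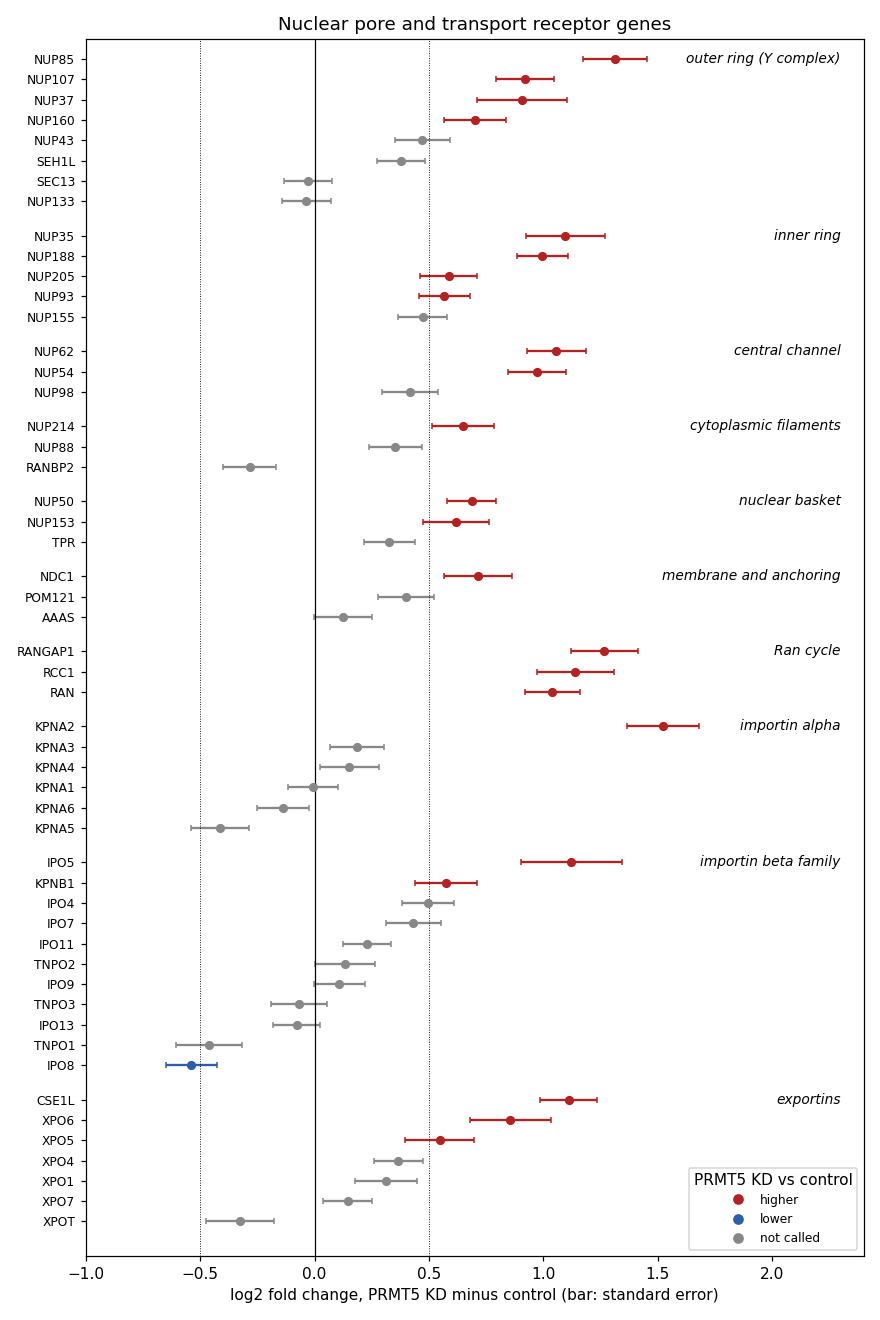
Log2 fold change of each of the 52 tested genes (points; bars are standard errors), libraries labelled PRMT5 KD minus control, grouped by role, with dotted lines at the fold threshold of 0.5. Red marks the 23 genes called higher, blue the 1 called lower (IPO8) and grey the 28 not called; the 3 Ran cycle genes are all red, while most importins are grey.

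The largest difference was that of KPNA2, which encodes importin alpha 1, an adaptor that binds classical nuclear localization signals. Because many of these genes moved in 1 direction, the start-proximal promoter sequence was read from RefSeq (GRCh38.p14) for the 47 tested members that had an entry. KPNA4, KPNA5, KPNB1, NUP43 and XPO7 had none. Short motifs were searched in the 250 bases before the first listed start, on both strands. The motif TTTGAA, the core of the element known as the cell cycle genes homology region, was found in 9 of 47 members (19.1%), against 8.40% of the promoters of all genes tested and 11.4% of those of all genes called higher. It was present in 6 of the 22 members called higher that had a promoter (KPNA2, NDC1, NUP35, NUP37, NUP153 and NUP205) and in 3 of the 25 others (NUP98, IPO7 and IPO11). CCAAT, the letters that NF-Y binds, was found in 19 members (40.4%, against 35.8% of all promoters and 41.8% of those of all genes called higher), 10 of them called higher. The letters CCGGAAG of ETS factors were found in 15 members (31.9%, against 16.4% and 19.6% in the same order), 8 of them called higher, and GCGCATGC of NRF1 in 5 (10.6%, against 4.91% and 4.73%), 4 of them called higher. The E2F letters TTTGGCGC, TTTCGCGC or TTTCCCGC were found in 1 member, IPO11 (2.13%, against 4.03% and 6.18%), and in none called higher. These matches describe letters and not bound sites, and no test was made on them.

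The promoters of 5 genes are shown, each as the 120 bases just before the start, read 5′ to 3′ on the gene's strand. CCAAT (or ATTGG, its complement) and TTTGAA (or TTCAAA) are in capitals. KPNA2, NUP35 and NUP37 were called higher and hold both motifs within the stretch, and CSE1L was called higher and holds only CCAAT. KPNA1 is the importin alpha whose level was closest between the groups and holds neither. The 5 are examples, and presence of a motif did not follow the calls throughout. KPNA6, not called (-0.14), holds CCAAT in the same stretch, while RAN, RANGAP1 and RCC1 were called higher and hold neither. The RANGAP1 window (chr22:41302370-41302489, minus strand) lies upstream of the gene interval used here (chr22:41244779-41286187) and does not adjoin it. Bases next to that interval were not read. Annotated GENCODE transcripts of KPNA2, CSE1L, NUP35, NUP37 and KPNA1 begin inside or upstream of these windows, so a window can include transcribed bases.
KPNA2 (chr17:68035615-68035734, plus strand): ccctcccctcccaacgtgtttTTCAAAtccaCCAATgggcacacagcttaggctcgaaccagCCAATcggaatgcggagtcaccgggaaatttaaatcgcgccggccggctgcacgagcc
NUP35 (chr2:183124323-183124442, plus strand): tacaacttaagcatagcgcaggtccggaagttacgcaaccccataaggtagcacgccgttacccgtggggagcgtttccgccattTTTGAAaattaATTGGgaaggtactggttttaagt
NUP37 (chr12:102120115-102120234, minus strand): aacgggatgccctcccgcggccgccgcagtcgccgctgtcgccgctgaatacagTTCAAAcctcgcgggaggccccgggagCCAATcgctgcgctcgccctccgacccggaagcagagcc
CSE1L (chr20:49046192-49046311, plus strand): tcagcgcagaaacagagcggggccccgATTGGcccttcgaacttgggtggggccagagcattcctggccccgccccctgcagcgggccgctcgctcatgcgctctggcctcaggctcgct
KPNA1 (chr3:122514940-122515059, minus strand): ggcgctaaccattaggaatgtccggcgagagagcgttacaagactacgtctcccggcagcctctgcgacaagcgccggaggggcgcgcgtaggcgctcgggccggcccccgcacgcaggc

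All 3 core genes of the Ran cycle were called higher (background 21.2%). RAN (chr12:130872037-130877678), the GTPase itself, measured 196 and 178 CPM in control and 392 and 378 CPM under the PRMT5 KD label. RANGAP1 (chr22:41244779-41286187), which activates GTP hydrolysis by RAN, measured 162 and 131 CPM in control and 335 and 370 CPM under the label. The groups did not overlap for either gene, and the differences were 1.04 (SE 0.12, FDR 0.00104) for RAN and 1.27 (SE 0.15, FDR 0.00102) for RANGAP1 on the log2 scale. RCC1 (chr1:28505943-28539300), the exchange factor that loads RAN with GTP on chromatin, measured 56.3 and 51.0 CPM in control and 100 and 136 CPM under the label, again without overlap, a log2 difference of 1.14 (SE 0.17, FDR 0.00230). Counts of RCC1 carried decimals, which arise where reads are shared out between genes, and the host transcript SNHG3, which overlaps it, measured 82.5 and 69.2 CPM in control and 57.4 and 72.2 CPM under the label, so the RCC1 estimate is less certain than those of RAN and RANGAP1.

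In the outer ring, the Y-shaped scaffold on both faces of the pore, 4 of 8 genes were called higher (background 21.2%) and none lower. NUP85 (chr17:75205659-75235758), a stem subunit of that complex, measured 24.8 and 23.9 CPM in control and 54.2 and 66.8 CPM under the PRMT5 KD label, so both labelled libraries were above both controls (log2 difference 1.31, SE 0.14, FDR 0.000770). The other 3 called were NUP107 (log2 difference 0.92), NUP37 (0.91) and NUP160 (0.70). SEC13, which is shared with the COPII coat of vesicles that leave the endoplasmic reticulum, had the highest level per exon length in this ring, with 88.4 and 92.4 CPM in control and 86.8 and 90.2 CPM under the label. Its groups overlapped (log2 difference -0.03, SE 0.10, FDR 0.822), and so did those of NUP133 (-0.04), and with total counts alone both values were above 0 (0.15 and 0.14). NUP43 (0.47) and SEH1L (0.38) passed the FDR but not the fold threshold, and after correcting for exon length and GC SEH1L was 0.61. Without control replicate 1 NUP37 was not called (0.72, FDR 0.0702), and without control replicate 2 NUP160 was not called (0.64, FDR 0.0698).

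The inner ring, which joins the scaffold to the membrane and anchors the central channel, had 4 of 5 genes called higher (background 21.2%). NUP35 (chr2:183117513-183161680), a membrane-binding subunit with both promoter motifs above, measured 11.0 and 8.54 CPM in control and 21.9 and 19.9 CPM under the PRMT5 KD label, a log2 difference of 1.10 (SE 0.17, FDR 0.00281). NUP205 (chr7:135557917-135648757), a large scaffold subunit and the most abundant of the ring per exon length, measured 160 and 137 CPM in control and 218 and 228 CPM under the label (0.59, SE 0.12, FDR 0.00863). For both genes the labelled libraries lay above both controls, and the difference of NUP35 was close to a doubling while that of NUP205 was nearer the threshold. NUP188, the paralog of NUP205, differed by 1.00 and NUP93, the linker subunit, by 0.57 (0.86 after correcting for exon length and GC), while NUP155 (0.47) passed the FDR only. Without control replicate 2, NUP205 (0.48, FDR 0.0897) and NUP93 (0.52, FDR 0.0679) were not called.

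Of the 3 FG nucleoporins of the central channel, NUP62 and NUP54 were called higher (background 21.2%). NUP62 (chr19:49906825-49929764) measured 75.2 and 73.5 CPM in control and 140 and 169 CPM under the PRMT5 KD label, with no overlap (log2 difference 1.06, SE 0.13, FDR 0.00119). Its counts carried decimals, as those of RCC1 did. NUP54, its partner in the channel, differed by 0.97. NUP98 (chr11:3671083-3797792), which carries GLFG repeats and is made together with NUP96 from 1 transcript, was the most abundant per exon length, at 294 and 281 CPM in control and 371 and 396 CPM under the label. Its difference of 0.42 (SE 0.12, FDR 0.0267) passed the FDR but not the fold threshold, and after correcting for exon length and GC it was 0.77.

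The cytoplasmic filaments were mixed, with 1 of 3 genes called higher (background 21.2%). NUP214 (chr9:131125573-131234663), an FG nucleoporin that docks exportin complexes, measured 104 and 93.4 CPM in control and 141 and 169 CPM under the PRMT5 KD label (log2 difference 0.65, SE 0.14, FDR 0.00814). It was not called without control replicate 2 (0.58, FDR 0.0862). NUP88, its partner, differed by 0.35 and passed the FDR only. After correcting for exon length and GC the values were 1.20 for NUP214 and 0.63 for NUP88, which would then be called. RANBP2 (chr2:108719482-108785810), the giant nucleoporin that holds RANGAP1 at the pore and acts as a SUMO ligase, went the other way in value, with 353 and 371 CPM in control and 298 and 297 CPM under the label. Its groups did not overlap, but it was not called (-0.28, SE 0.12, FDR 0.0822). RANBP2 shares sequence with the RGPD genes. With their counts added the difference was -0.37 (FDR 0.0420), and after correcting for exon length and GC it was 0.19, so its direction was not stable.

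At the nuclear basket, on the inner face of the pore, 2 of 3 genes were called higher (background 21.2%). NUP50 (chr22:45163925-45188017), which helps to release importin alpha cargo, measured 75.7 and 72.9 CPM in control and 123 and 116 CPM under the PRMT5 KD label (log2 difference 0.69, SE 0.11, FDR 0.00267). NUP153 (chr6:17615035-17706925), an FG nucleoporin that anchors the basket, measured 221 and 188 CPM in control and 290 and 338 CPM under the label (0.62, SE 0.14, FDR 0.0119). The labelled libraries lay above both controls for both genes. NUP153 was not called without control replicate 2 (0.51, FDR 0.113), and TPR, the filament protein of the basket, passed the FDR only (0.33, or 0.61 after correcting for exon length and GC).

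Among the membrane and anchoring genes, 1 of 3 tested was called higher (background 21.2%). This was NDC1 (chr1:53765478-53838463), a transmembrane nucleoporin, with 78.5 and 68.2 CPM in control and 107 and 134 CPM under the PRMT5 KD label (log2 difference 0.72, SE 0.15, FDR 0.00833). It was not called without control replicate 2 (0.62, FDR 0.0854). POM121 (0.40, or 0.78 after correcting for exon length and GC) passed the FDR only. It did not once the counts of its near-identical copy POM121C were added (0.32, FDR 0.0637), and AAAS (0.13) overlapped between the groups. The fourth gene, NUP210, which encodes the luminal membrane nucleoporin, was under the minimum for testing at 167, 317, 87 and 103 counts in control 1 and 2 and in the libraries labelled PRMT5 KD 1 and 2. Its levels were 4.22 and 6.34 CPM in control and 1.83 and 2.15 CPM under the label, so the labelled libraries were the lower ones. With no filter on low counts it was tested and called lower (-1.36, FDR 0.00429).

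Taking the 6 nucleoporin classes as 1 group, 14 of 25 tested genes were called higher and 0 lower (median log2 fold change 0.59). Among receptors, the 24 tested genes of the importin alpha, importin beta and exportin classes had 6 called higher and 1 lower, with a median of 0.17. That is 25.0% and 4.17% of the receptors, and 56.0% and 0% of the nucleoporins, against 21.2% and 24.3% of all genes tested. The share of receptors called higher was near that of all genes, while the share called lower was below it. The difference between these 2 medians was not tested.

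**Figure D2:**
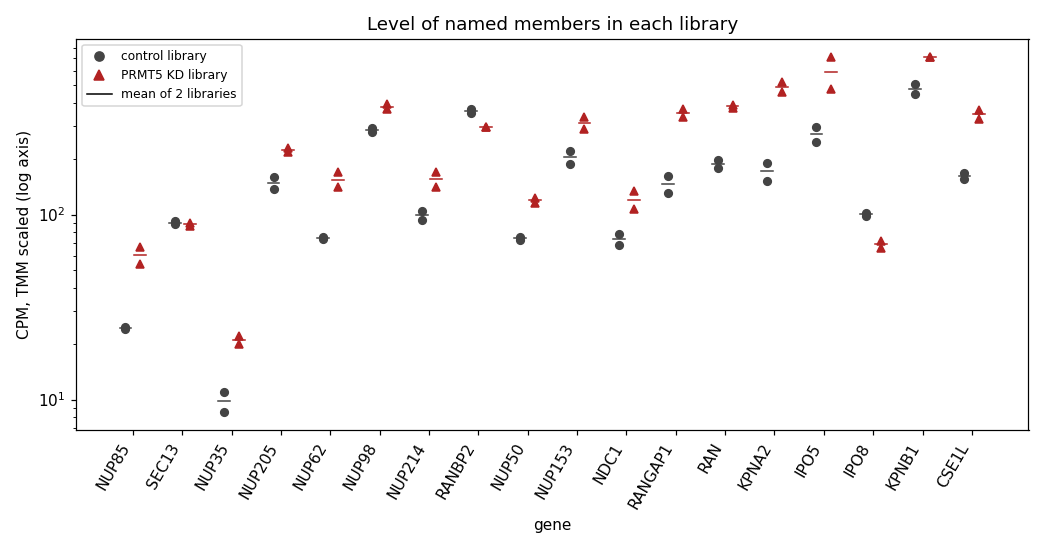
Level of 18 pore and transport genes in each library, in TMM-scaled CPM on a log axis, with control libraries as grey circles, libraries labelled PRMT5 KD as red triangles and the mean of each 2 as a short line. For KPNA2 the red points sit at 462 and 523 CPM above control at 190 and 153 CPM, while the points of SEC13 overlap and those of IPO8 and RANBP2 are lower under the label.

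The importin alpha family showed 1 called gene, a higher one, among 6 tested (16.7%, against 21.2% of all genes tested called higher). KPNA2 (chr17:68035636-68047364) measured 190 and 153 CPM in control and 462 and 523 CPM under the PRMT5 KD label, or 171 ± 26.5 against 492 ± 43.6 CPM (SD, n = 2), so both labelled libraries were far above both controls. Its log2 difference of 1.52 (SE 0.16, FDR 0.000722) was a 2.87-fold change, the largest of the 52 genes, in counts that also carried decimals. The other 5 ran from -0.41 to 0.19. KPNA1 (importin alpha 5) measured 253 and 255 CPM in control and 251 and 254 CPM under the label, a log2 difference of -0.01 (SE 0.11, FDR 0.967) whose sign turned under other scalings. KPNA5 was lower by FDR alone (-0.41, FDR 0.0326), and after correcting for exon length and GC it was -0.16. KPNA7, a paralog described in early embryos, held 1 count in each of 2 libraries and 0 in the others and was not tested.

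The makeup of the importin alpha transcripts differed with the label. KPNA2 made up 18.3% and 15.5% of the family's summed RPKM (CPM per kilobase of exon) in control libraries but 35.1% and 38.0% in those labelled PRMT5 KD. KPNA6 held 25.3% and 26.0% in control, the highest share of the family there, and 18.6% and 16.5% under the label. KPNA1 went from 21.1% and 22.4% to 16.5% and 16.0%. Neither KPNA6 nor KPNA1 was itself called (log2 differences -0.14 and -0.01), so their smaller shares do not stand for lower levels. The summed RPKM of the family itself was 141 and 134 in control and 179 and 187 under the label. These shares depend on the exon length assigned to each gene and were given no test.

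**Figure D3:**
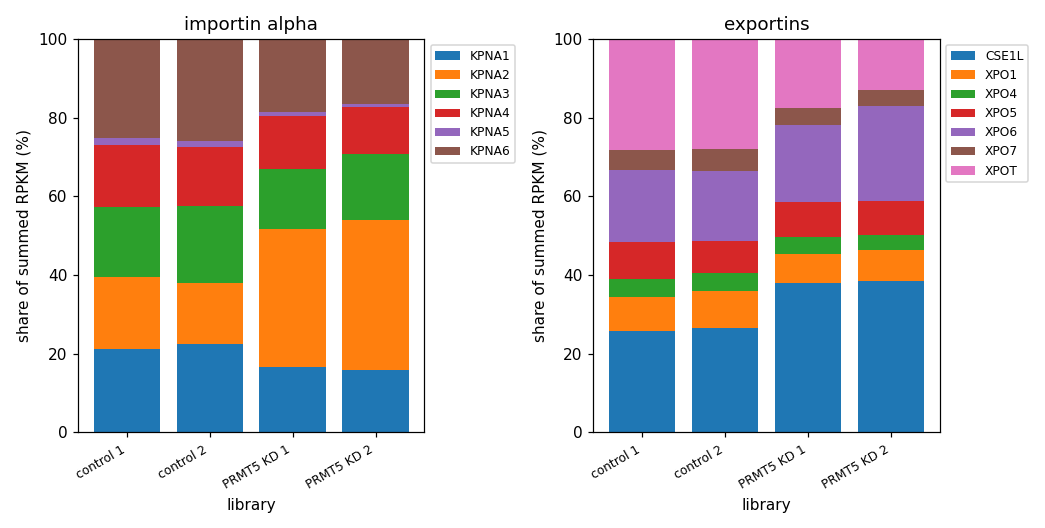
Share of summed RPKM (%) held by each importin alpha gene (left) and each exportin gene (right) in each of the 4 libraries, as stacked bars from 0 to 100%. KPNA2 widens from 18.3% and 15.5% in control to 35.1% and 38.0% under the PRMT5 KD label, and CSE1L from 25.7% and 26.6% to 38.0% and 38.5%, while XPOT narrows.

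Of the 11 genes of the importin beta family tested, 2 were called higher and 1 lower. These are 18.2% and 9.09%, against 21.2% and 24.3% of all genes tested. IPO5 (chr13:97953658-98024296), which imports ribosomal proteins and histones, measured 299 and 246 CPM in control and 710 and 476 CPM under the PRMT5 KD label. Both labelled libraries were above both controls but they differed widely from each other, and the log2 difference was 1.12 (SE 0.22, FDR 0.00709). The call was lost without control replicate 2 (0.99, FDR 0.0768). KPNB1 (chr17:47649476-47685505), importin beta 1, which pairs with the importin alpha adaptors, had the highest level of the family per exon length. It measured 508 and 447 CPM in control and 714 and 708 CPM under the label (0.57, SE 0.14, FDR 0.0132), and it was not called without control replicate 1 (0.68, FDR 0.0569) or without control replicate 2 (0.49, FDR 0.128).

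IPO8 (chr12:30628988-30695869), an importin linked to SMAD proteins and Argonaute, was the only one of the 52 genes called lower. It measured 98.2 and 102 CPM in control and 72.1 and 66.0 CPM under the PRMT5 KD label, so the groups did not overlap (log2 difference -0.54, SE 0.11, FDR 0.00747). The call was close to the fold threshold and was kept in 8 of 16 alternative fits. It was lost without control replicate 2 (-0.50, FDR 0.0722) and without PRMT5 KD replicate 2 (-0.47, FDR 0.0131). With total counts alone the difference was -0.36, and with no filter on low counts, with filterByExpr, with all gene names and after correcting for exon length and GC it was -0.49, -0.47, -0.47 and -0.49, each short of the fold threshold. TNPO1 (transportin 1), the import receptor for proteins with a PY-type signal, measured 589 and 484 CPM in control and 393 and 386 CPM under the label, without overlap. It was lower by FDR alone (-0.46, FDR 0.0359), and after correcting for exon length and GC it was -0.17. IPO4 (0.495, FDR 0.0113) and IPO7 (0.43), both linked to histones and ribosomal proteins, were higher by FDR alone. IPO9, IPO11, IPO13, TNPO2 and TNPO3 ran from -0.08 to 0.23 and did not pass the FDR. In shares of the family's summed RPKM, IPO5 went from 10.7% and 9.62% in control to 20.8% and 14.8% under the label, and TNPO1 from 15.5% and 13.9% to 8.50% and 8.86%.

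Among the 7 exportins 3 were called higher and none lower (42.9% higher, against 21.2% of all genes tested). CSE1L (chr20:49046246-49096960), which returns importin alpha to the cytoplasm, measured 167 and 155 CPM in control and 328 and 368 CPM under the PRMT5 KD label, with no overlap (log2 difference 1.11, SE 0.12, FDR 0.000915). By mean RPKM over the 4 libraries it was the highest of the exportins, although in control XPOT, at 45.7 RPKM, was above its 42.4 RPKM. XPO6, the exportin for profilin and actin, measured 223 and 192 CPM in control and 319 and 431 CPM under the label (0.86, FDR 0.00808), and XPO5, the exportin for precursor miRNA, differed by 0.55 (FDR 0.0231). Without control replicate 2 neither was called (0.76, FDR 0.0886 for XPO6 and 0.37, FDR 0.148 for XPO5). XPO5 was not called without PRMT5 KD replicate 2 either, at 0.498 (FDR 0.0383).

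XPO1 (CRM1), the general export receptor for leucine-rich nuclear export signals, did not pass the test. It measured 359 and 345 CPM in control and 402 and 472 CPM under the PRMT5 KD label, above control in both libraries (log2 difference 0.31, SE 0.14, FDR 0.0960). After correcting for exon length and GC the difference was 0.76 with an FDR of 0.00538, which would be a call. XPOT, the tRNA exporter, measured 355 and 314 CPM in control and 294 and 240 CPM under the label (-0.33, SE 0.15, FDR 0.107) and was the only exportin below 0. CSE1L rose as a share of the summed exportin RPKM from 25.7% and 26.6% in control to 38.0% and 38.5%, while XPOT went from 28.3% and 27.9% to 17.7% and 13.0%. Counts of XPOT and XPO7 carried decimals from shared reads.

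Genes of the same pathway outside the name rule were counted from a separate list. Of 37 that were present, all were tested, and 13 were called higher, 2 lower and 22 not called (median log2 fold change 0.32). These are 35.1% and 5.41%, against 21.2% and 24.3% of all genes tested. RANBP1, the cytoplasmic cofactor of RANGAP1, measured 19.7 and 18.4 CPM in control and 49.9 and 51.7 CPM under the PRMT5 KD label, without overlap (1.42, SE 0.12, FDR 0.000427). DDX39A, an RNA helicase of mRNA export, measured 59.9 and 47.8 CPM in control and 129 and 143 CPM under the label (1.34, SE 0.15, FDR 0.000824). The nucleoporins NUP58 and NUP42, listed in the tables under their older symbols NUPL1 and NUPL2, were called higher by 1.12 and 0.58. Of other pore genes on that list, AHCTF1 (0.32), RAE1 (0.32) and POM121C (0.23) did not pass the FDR, and GLE1 (0.42) passed the FDR only. In the other direction, TMEM33, a membrane protein associated with the pore, measured 252 and 246 CPM in control and 181 and 169 CPM under the label (-0.51, SE 0.11, FDR 0.00978). RANBP3L, an export cofactor of SMAD proteins, received 1548 and 2079 counts in control against 4 and 0 under the label. A fold change is not given, because 1 of the labelled libraries held none.

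Exon length moved with the differences over all genes. The median log2 fold change was 0.24 in the 10% of genes with the least total exon length and -0.29 in the 10% with the most. The pore and transport genes were long, with a median of 7498.5 bases of exon against 5383 over all genes tested. After correcting for exon length and GC, their median rose from 0.45 to 0.64, against 0.06 over all genes, and 44 of 52 lay above 0 (41 without it, background 49.4%). With that correction 32 were called higher and 0 lower, while over all genes 2865 were called higher and 2490 lower. The share of all calls that were higher was then 53.5%, against 46.5% without the correction. Among the pore and transport genes the correction added 9 calls, for NUP88, NUP98, NUP155, POM121, SEH1L, TPR, IPO4, XPO1 and XPO4, and lost that of IPO8. The part of length in the differences was not tested.

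**Figure D4:**
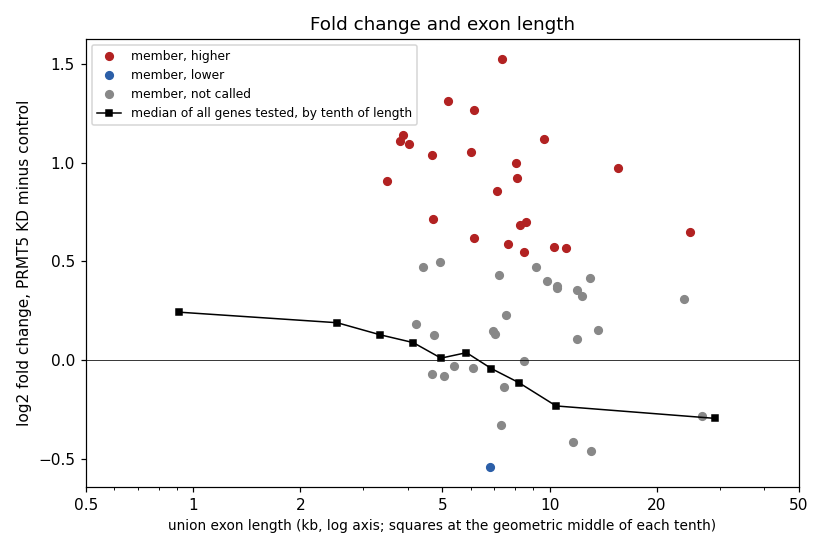
Log2 fold change of the 52 tested genes against union exon length in kilobases on a log axis, with the median of all 11897 genes in each of 10 bins of length as black squares. The squares fall from 0.24 to -0.29 with length, and the pore and transport genes lie mostly above them.

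The 5 names not tested were KPNA7 and NUP210, given above, NUP210L, NUP210P1 and NUP62CL. NUP62CL (chrX:107123427-107206433), a NUP62-like gene, received 3 and 5 reads in the control libraries, against 24 and 21 in those labelled PRMT5 KD. NUP210L, a paralog of NUP210, received 7 and 9 in control against 2 and 3 under the label, and the pseudogene NUP210P1 had 0 in all 4 libraries. With no filter on low counts NUP62CL was called higher (2.43, FDR 0.0115), on these few counts, and NUP210L was not called (-1.67, FDR 0.143).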

How the data were processed

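RNA-seq of total RNA was analysed for 4 libraries of UMSCC74B cells. The authors deposited estimated counts per gene, without normalization, in 1 table per library. Between 93.3% and 93.8% of values lay within 0.01 of a whole number. The submitters' processing notes list FastQC, Trim Galore, STAR, Salmon and DESeq2 on GRCh38, whereas the methods of the study name featureCounts on uniquely mapped reads, so which counter made the tables is not settled. Counts with decimals, which arise where reads are shared out between genes, occurred in 7 of the 52 members tested.

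Names turned into dates by a spreadsheet (28 of 29744 entries, 0.150% to 0.161% of counts) were left out and rows of 1 name were summed. Names were matched to GENCODE release 44 by symbol (21877), RefSeq gene number (1149) or synonym (1530), while 63 were ambiguous and 5036 had no match. Counts were rounded, and the 11897 protein-coding genes with 0.5 RPKM or more in the 2 libraries of a group were tested. The test was the edgeR 4.0.16 quasi-likelihood F test with robust dispersion and TMM factors (0.946 and 0.934 in control, 1.04 and 1.09 under the PRMT5 KD label) in R 4.3.3, with p-values adjusted by Benjamini-Hochberg over the whole table, no replicate term, and a common biological coefficient of variation of 0.14. Exon lengths are those of the union of all annotated transcripts, so levels per length depend on the gene models. Each standard error follows from the F statistic and the fold change. The procedure was tested on simulated data.

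Genes given with values in every library are, in each class, the called gene with the largest increase, the called gene with the largest decrease and the gene with the highest mean RPKM, with PRMT5 and, of the related transport genes, the 2 called genes with the largest change each way. RCC1, KPNA1, TNPO1, XPO1, XPOT and XPO6 were added after their values were seen. The members and lists were chosen with earlier results of these data known. The authors' other libraries, of FXR1 KD and FXR1 eCLIP, were not analysed here.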

Additional observations from a re-analysis of the deposited data

How the results depend on the processing

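Alternatives were DESeq2 1.42.0, RLE scaling, total counts alone, other filters, all gene names, non-robust dispersion, a replicate block, summed paralogs, a length and GC correction (splines with 4 degrees of freedom), each library left out and a log2 threshold of 1. With 2 libraries per group, leaving 1 out assumes that the lone library varies as the other group does. At the threshold of 1, 9 members were called (9 higher, 0 lower), as were 2561 genes (1032 higher, 1529 lower), and PRMT5 at 0.66 was not. Members called lower were 0 with total counts alone, all gene names, and both versions of the length and GC correction (without the replicate block and with it). With no filter and with filterByExpr the 1 member called lower was NUP210 (-1.36 and -1.34), which is under the minimum otherwise, and IPO8 was not called.

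Leaving out each library in turn gave 13 to 28 members called (13 to 27 higher, 0 to 1 lower), 3099 to 5722 genes called (1355 to 2760 higher, 1744 to 2962 lower), and 0.57 to 0.78 for PRMT5. The lowest counts came without control replicate 2. The same replicate number in the 2 groups marks no shared origin in the labels, and deviations of same-numbered libraries correlated at -0.10. The replicate block gave 24 members (23 higher, 1 lower) and 5190 genes, and changed no call of a member. A crossed pairing, chosen after seeing the data, gave 24 members and 5483 genes.

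Reversals of sign were confined to members that were not called, listed here over the alternatives run. With total counts alone IPO13 was 0.10, KPNA1 0.17, KPNA6 0.0394, NUP133 0.14, SEC13 0.15 and TNPO3 0.11. With the length and GC correction, without and with the block, IPO13 was 0.0400 and 0.0406, KPNA1 0.14 and 0.14, and RANBP2 0.19 and 0.19. With DESeq2 and RLE scaling KPNA1 was 0.00186 and 0.00186. With no filter, filterByExpr and all gene names KPNA1 was 0.0469, 0.0583 and 0.0649, NUP133 0.0161, 0.0277 and 0.0344, and SEC13 0.0227, 0.0344 and 0.0409, and with all gene names TNPO3 was 0.00175. Leaving out each library in turn, KPNA1 ran from -0.0133 to 0.0353, NUP133 from -0.0900 to 0.0482, SEC13 from -0.0557 to 0.0291, TNPO2 from -0.00471 to 0.29 and TNPO3 from -0.15 to 0.0429. The cause of these changes was not tested. Which of depth and the number of libraries limits the precision was not tested.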
